A study of Mus musculus with 2 samples.

Results

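Genes that act in the embryo were followed in postnatal mouse epidermis after induction of the transcription factor SOX11. Many of them, though not all, fall silent or low in most adult tissues and return in growing tissue and tumours. The set held 10 genes: Igf2bp1, Igf2bp2, Igf2bp3, Lin28b, Hmga1, Hmga2, Igf2, H19, Dlk1 and Peg10. Their probes were taken by gene name from the non-control spots of both arrays, which gave 23 of the 55676 probes tested, with at least 1 for each of the 10 genes. All were kept, including those at background.

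The comparison was made on 2 two-colour arrays, on which 2 RNA samples labelled with different dyes bind to the same probes. On each array, FVB/N pups that carried K14-rtTA and TRE-Sox11-FLAG were set against littermates with K14-rtTA alone, and the term pair is used here for 1 array with its 2 littermates. K14-rtTA makes a doxycycline-dependent activator under the keratin 14 promoter, so only cells that use this promoter, mainly basal keratinocytes, switch on the second transgene, which encodes SOX11 with a FLAG tag. Both pups of a pair received doxycycline (Dox) for 12 h and were taken at postnatal day 4.5, and the dorsal epidermis was separated with dispase. Control RNA carried Cy3 and SOX11-induced RNA carried Cy5 on both arrays, so dye and genotype cannot be told apart within a single probe. A log2 ratio above 0 stands for more signal in SOX11-induced epidermis, with an SD over the 2 pairs.

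The products of these genes belong to a connected growth programme. LIN28B binds precursors of the let-7 microRNAs and blocks their maturation, and let-7 in turn lowers many mRNAs, with Lin28b, Hmga1, Hmga2 and the Igf2bp genes among its known targets. The IGF2BP proteins bind mRNAs, Igf2 mRNA among them, and control their stability, transport and translation, while HMGA1 and HMGA2 are chromatin proteins that bind AT-rich DNA. Igf2, H19, Dlk1 and Peg10 are imprinted, which means that 1 parental copy is used: IGF2 is a fetal growth factor, H19 is a noncoding RNA from the same locus, DLK1 is a membrane protein of the Notch ligand family and PEG10 derives from a retrotransposon.

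The microRNA side of this programme was not measured by these probes, but its sequence can be read in 1 of them. RefSeq (GRCm38.p6) listed 11 mature guide strands of the let-7 family, of which 10 shared the same seed, the bases 2 to 8 that pair with a target. Examples follow with the seed in capitals, together with 29 bases of the Hmga2 probe at 119798739-119798798 on chromosome 10 (mm9), in which capitals mark the bases complementary to that seed.
mmu-let-7a-5p: uGAGGUAGuagguuguauaguu
mmu-let-7i-5p: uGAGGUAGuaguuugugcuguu
Hmga2 probe: atcaaaacacactaCTACCTCttaagtcc
The letters CTACCTC were searched in probe sequences as printed, on the mRNA strand. They were found in 1 of the 23 member probes, the Hmga2 probe shown, and in 0.366% of all probe sequences. A match of these letters is a description of the probe and not a measure of let-7 activity.

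Of the non-control spots, 37.5% to 42.6% were well above background in each of the 4 channels. Probes of Xist were above background in both channels of pair 1 and in neither of pair 2, while the Y-linked genes Ddx3y and Eif2s3y had the opposite pattern, so the pairs differ in these sex-linked genes. The 2 probes of Sox11 were not well above background in any channel, with log2 ratios of 0.10 and -0.35 and of -0.39 and -0.05, and could not check the labels. Whether they lie within the transgene was not analysed here. Markers of keratinocytes were bright, with 7 of 8 above background. None of these 8 passed an adjusted p of 0.05: the differentiation genes Krt1, Krt10 and Lor were above 0 in both pairs, with means of 0.62, 0.58 and 0.50, and the basal keratins Krt5 and Krt14 below 0, with means of -0.44 and -0.31.

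Of the 23 member probes, 14 were above background, and each of these was so in all 4 channels. They belonged to Igf2bp1, Igf2bp2, Igf2bp3, Hmga1, Igf2 and H19. Of the other 9 probes, 8 were not well above background in any channel. Signal over background, the mean spot brightness divided by the median brightness around the spot, ran from 0.951 to 1247 among the members. This ratio can be compared between pups only within a dye, because the median background was 21 and 23 scanner units for Cy3 and 57 and 58 for Cy5 on arrays 1 and 2.

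**Figure D1:**
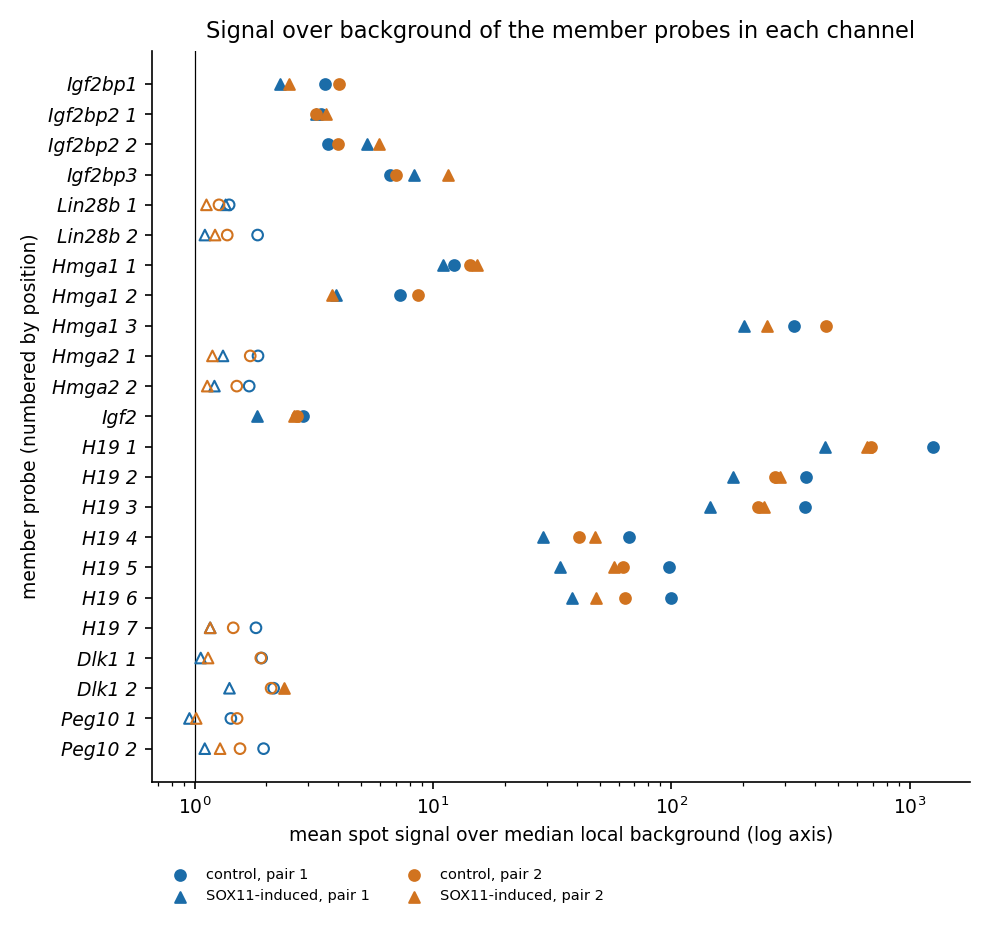
Mean spot signal over median local background (log axis) of each member probe in the control (circles) and SOX11-induced (triangles) channels of pair 1 (blue) and pair 2 (orange); filled symbols are well above background and open symbols are not. Probes of a gene are numbered by position. H19 and 1 Hmga1 probe stand far above the rest, and Lin28b, Hmga2 and Peg10 have no filled symbol.

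At an adjusted p under 0.05, 3 member probes were higher in SOX11-induced epidermis and 0 were lower. They were 1 probe each of Igf2bp2, Igf2bp3 and Lin28b, and the Lin28b probe was at background. Over all probes tested, 2.99% were higher and 1.41% lower by the same rule, against 13.0% of the member probes. Without adjustment, 6 member probes were higher and 3 lower at a p under 0.05 (limma), where 11.9% of all probes were higher and 9.17% lower. Among the probes above background, 2 of the 14 members were higher, where 6.78% of 21782 such probes were higher and 3.21% lower. None of the 23 passed the stricter threshold of the study's methods, an adjusted p under 0.05 with a log2 ratio past 1.5, which 0.453% of all probes did, and without adjustment the count was also 0. At 1.5-fold on the linear scale the same 3 probes passed. The median log2 ratio of the member probes was 0.07, with -0.15 in pair 1 and 0.23 in pair 2, beside 0.01 over all probes. Pups of 2 pairs limit the precision of every value here, since 0.5 is the smallest p that exact sign flips of 2 ratios allow, and the adjusted p-values rest on variances shared across probes.

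**Figure D2:**
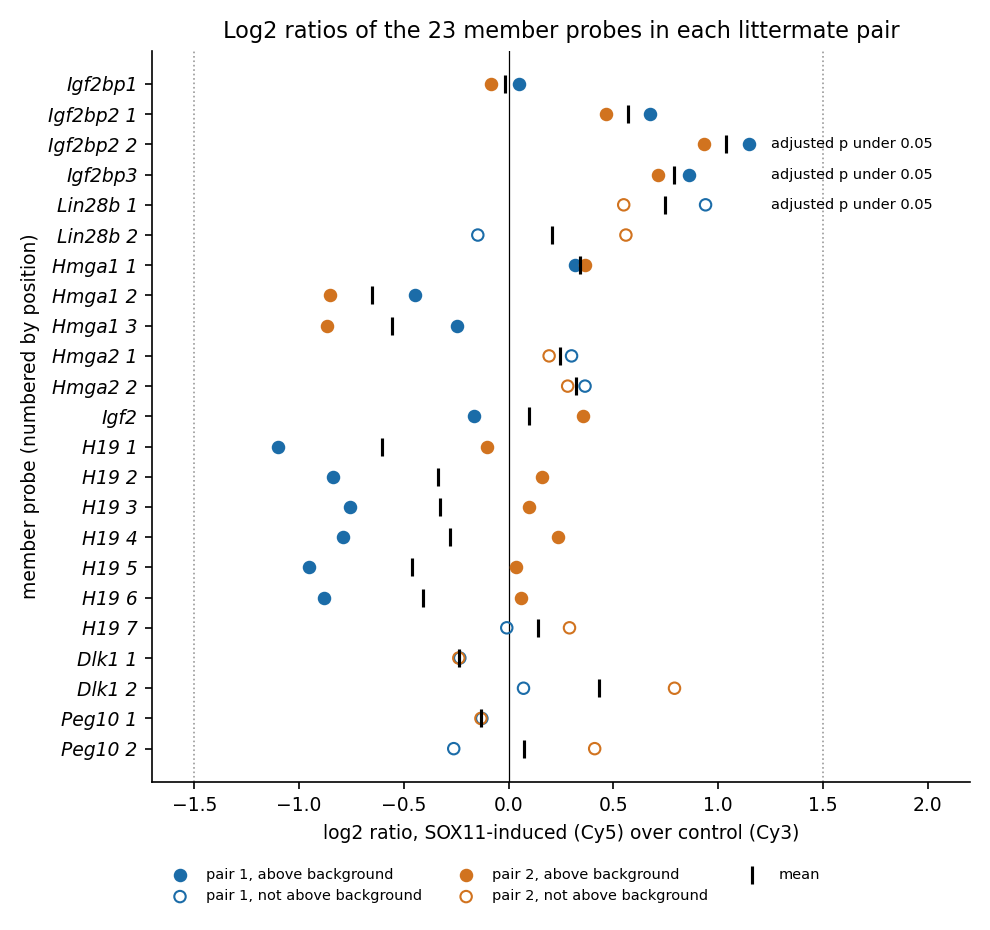
Log2 ratio of SOX11-induced over control signal for each of the 23 member probes in pair 1 (blue) and pair 2 (orange), with a black tick at the mean; open circles are probes not above background on both arrays and dotted lines mark log2 ratios of 1.5 in either direction. Igf2bp2 and Igf2bp3 lie to the right of 0 in both pairs, and the bright H19 probes lie near -1 in pair 1 and near 0 in pair 2.

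Igf2bp2 and Igf2bp3, which encode mRNA-binding proteins, were higher in SOX11-induced epidermis in both pairs. The Igf2bp2 probe at 22059582-22059641 on chromosome 16 (mm9) had a signal over background of 3.63 in the control and 5.29 in the induced pup of pair 1, and of 4.01 and 5.93 in pair 2. Its log2 ratios were 1.15 and 0.93, averaging 1.04 ± 0.154 (SD over 2 pairs, limma adjusted p = 0.00607) or 2.06-fold, with a 95% interval of 0.69 to 1.38. Apart from spike-in scaling, its mean ran from 0.83 with an offset of 50 to 1.49 with processed signals. The interval therefore does not cover the choice of processing.

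The other Igf2bp2 probe, at 22059260-22059319, read 3.38 in the control and 3.22 in the induced pup of pair 1, and 3.23 and 3.55 in pair 2. Its log2 ratios of 0.67 and 0.47 had the same sign and a smaller size, and their mean of 0.57 ± 0.147 (SD over 2 pairs) did not pass the threshold (limma adjusted p = 0.0721). Both Igf2bp2 probes therefore lay above 0 in both pairs, and only the former passed.

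The Igf2bp3 probe at 49035710-49035769 on chromosome 6 read 6.59 in the control and 8.32 in the induced pup of pair 1, and 6.996 and 11.6 in pair 2. Its log2 ratios were 0.86 and 0.71, averaging 0.79 ± 0.104 (SD over 2 pairs, limma adjusted p = 0.0210) or 1.73-fold, with a 95% interval of 0.45 to 1.13. Apart from spike-in scaling, its mean ran from 0.71 with an offset of 50 to 1.30 with median centring, past this interval. The higher values of Igf2bp2 and Igf2bp3 kept their sign under every scaling tried. Of these, median centring and spike-in scaling, described below, moved the median of probes above background from 0.04 to 0.51 and 1.32. A kept sign under them says little about a value that was already above 0. The passing probes of both genes missed the adjusted p threshold when the processed signals of the scanner software were used (0.250 for Igf2bp2 and 0.251 for Igf2bp3, limma). Under that setting no probe on the array passed this threshold together with a log2 ratio past 1.5.

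Igf2bp1, the third gene of this family, had 1 probe at 95824526-95824585 on chromosome 11. It read 3.52 in the control and 2.28 in the induced pup of pair 1, and 4.03 and 2.49 in pair 2. The log2 ratios were 0.05 and -0.08, averaging -0.02 ± 0.0929 (SD over 2 pairs, limma adjusted p = 0.965) with a 95% interval of -0.36 to 0.32. The interval lay below those of Igf2bp3 and of the Igf2bp2 probe that passed, although the difference between the genes was not itself tested.

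The promoters of Igf2bp2 and Igf2bp3 are shown because each gene had a probe above background that was higher past the adjusted p threshold. Whether these genes are regulated together was not tested. RefSeq (GRCm38.p6) gave the 250 bases before the listed start for Igf2bp2 (chr16:22163300-22163549, minus strand) and Igf2bp3 (chr6:49214955-49215204, minus strand). Capitals mark GGGCGG (GC box), CCAAT and CACGTG (E-box) on either strand.
Igf2bp2: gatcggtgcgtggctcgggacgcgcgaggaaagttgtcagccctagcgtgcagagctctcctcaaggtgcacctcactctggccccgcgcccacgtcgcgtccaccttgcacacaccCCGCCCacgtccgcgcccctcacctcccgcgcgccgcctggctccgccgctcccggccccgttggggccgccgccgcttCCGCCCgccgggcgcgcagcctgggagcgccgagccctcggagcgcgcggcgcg
Igf2bp3: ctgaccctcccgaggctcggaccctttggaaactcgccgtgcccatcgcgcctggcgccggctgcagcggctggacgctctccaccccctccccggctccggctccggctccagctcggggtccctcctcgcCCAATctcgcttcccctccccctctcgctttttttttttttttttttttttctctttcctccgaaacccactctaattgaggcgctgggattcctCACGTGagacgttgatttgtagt
The Igf2bp2 window held 2 GC boxes, a motif present in 32.7% of 32851 promoter windows of this length, and had a GC content of 77.2% beside a median of 52.4% over all windows. The Igf2bp3 window held 1 E-box, present in 6.02% of windows, 1 CCAAT, present in 33.8%, and had a GC content of 60.4%. TATAAA (12.4% of windows) was in neither. The SOX-type letters ACAAAG and ACAATG, searched on both strands, occur in 16.5% and 10.7% of windows and were not found in either of these, which says only that the letters are absent from these 250 bases. Of the 11 promoters that RefSeq listed for 7 of the 10 member genes, 2 held either of these SOX-type motifs (1 of Hmga2 and 1 of 4 of Igf2), against 25.2% of all windows.

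Lin28b was at background. Its probe at 45096468-45096527 on chromosome 10 read 1.39 in the control and 1.35 in the induced pup of pair 1, and 1.26 and 1.12 in pair 2, all without reaching the mark for well above background. The log2 ratios of this probe after correction were 0.94 and 0.55, averaging 0.74 ± 0.276 (SD over 2 pairs, limma adjusted p = 0.0353). No fold change is given, because both groups lay at background. The second Lin28b probe, at 45140412-45140471, gave opposite signs in the pairs, -0.15 and 0.56, and did not pass (limma adjusted p = 0.576). The passing value was lost with an offset of 50 (adjusted p = 0.0737), with median spot brightness (0.0575), with median centring (0.0608) and with processed signals (0.580). Lin28a, the paralogue of Lin28b, was close to background and had log2 ratios of -0.01 and 0.18 (limma adjusted p = 0.788).

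Hmga1 was clearly detected, and its 3 probes on chromosome 17 did not share a sign. The brightest, at 27700543-27700602, read 328 in the control and 201 in the induced pup of pair 1, and 447 and 251 in pair 2. Its log2 ratios were -0.25 and -0.86, averaging -0.56 ± 0.436 (SD over 2 pairs, limma adjusted p = 0.120). The probe at 27696588-27696647 read 7.24 in the control and 3.90 in the induced pup of pair 1, and 8.66 and 3.77 in pair 2. Its log2 ratios of -0.45 and -0.85 had a mean of -0.65 ± 0.286 (limma adjusted p = 0.0581). Both of these probes were below 0 in both pairs, without passing the threshold.

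The third Hmga1 probe, at 27693913-27693973, read 12.2 in the control and 11.03 in the induced pup of pair 1, and 14.3 and 15.3 in pair 2. It had log2 ratios of 0.32 and 0.37, averaging 0.34 ± 0.0352 (SD over 2 pairs, limma adjusted p = 0.230). The direction of the lower values depended on scaling: the mean of the brightest probe became 0.17 with median centring, and with spike-in scaling it became 0.72 and that of the probe at 27696588 became 0.63. Under each scaling the probe at 27693913 stayed above the other Hmga1 probes.

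Hmga2 was not detected. Signal over background was between 1.13 and 1.84 in the 4 channels of its 2 probes, none of them well above background. Their log2 ratios were all above 0, between 0.19 and 0.36, and did not pass (limma adjusted p = 0.383 and 0.255). No fold change can be read from probes at this level.

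H19 was the brightest of the imprinted members. The H19 probes lie on chromosome 7 (mm9), and 6 of the 7 were far above background. The sequences of the brightest and the dim one are shown. Where each lies within the H19 transcript was not analysed here.
H19 probe at 149761492-149761551: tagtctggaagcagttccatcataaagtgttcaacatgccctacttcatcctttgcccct
H19 probe at 149762417-149762476: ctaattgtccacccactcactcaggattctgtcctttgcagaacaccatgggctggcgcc
The brightest probe read 1247 in the control and 441 in the induced pup of pair 1, and 685 and 659 in pair 2. Its log2 ratios were -1.10 and -0.10, averaging -0.60 ± 0.705 (SD over 2 pairs, limma adjusted p = 0.162), so that H19 was lower in the induced pup of pair 1 and nearly level in pair 2.

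The other bright H19 probes repeated this pattern. Over all 6, the log2 ratio ran from -1.10 to -0.76 in pair 1 and from -0.10 to 0.23 in pair 2, and 1 of 6 had the same sign in both pairs. None passed the threshold, with adjusted p-values from 0.162 to 0.520 (limma). These probes read 1 RNA in the same 4 pups and are not independent of each other. The log2 ratio of pair 1 lay below that of pair 2 by 0.85 to 1.03, and this gap remained between 0.85 and 1.16 under every scaling tried. The level did not hold: the means of the 6 probes, all below 0 as given, were between 0.17 and 0.38 with median centring and between 0.68 and 1.00 with spike-in scaling. The seventh probe, at 149762417, was at background, with signals between 1.16 and 1.81 times background and log2 ratios of -0.01 and 0.29.

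Markers of other cells were read beside these values. All 8 hair keratins measured, structural proteins of the hair shaft, had log2 ratios between 2.12 and 2.46 in pair 1 and between -0.54 and -0.10 in pair 2. Their summed signal over background was 1027 and 9367 in the controls of pairs 1 and 2 and 4032 and 7945 in the induced pups. The control of pair 1 was thus far below the control of pair 2. The summed signal over background of the 15 dermal fibroblast genes was 841 and 597 in the controls of pairs 1 and 2 and 551 and 602 in the induced pups, most of it from Sparc, a matrix glycoprotein (661 and 473, 448 and 494). Of the fibroblast genes, 9 were above background, and their log2 ratios had medians of -0.17 (pair 1) and 0.08 (pair 2), while Pdgfra, Lum and Dpt were not above background in any channel. Thy1, a surface protein, was lower (-1.37 and -1.22, limma adjusted p = 0.00179) and Fbln1, a matrix protein, higher (0.64 and 0.61, adjusted p = 0.0499). The other fibroblast genes did not pass, with Col1a2 at -0.17 and 1.14 and Postn at -1.60 and -0.07. Of the 3 red cell markers, the globin genes Hba-a1 (1.06 and 1.37, adjusted p = 0.00311) and Hbb-b1 (1.34 and 1.78, adjusted p = 0.00100) were higher, and Alas2 (0.83 and 0.05, adjusted p = 0.241) did not pass. Whether hair, fibroblast or red cell content has a part in the member values was not tested. In whole epidermis, fewer cells of a type and less RNA per cell cannot be told apart.

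**Figure D3:**
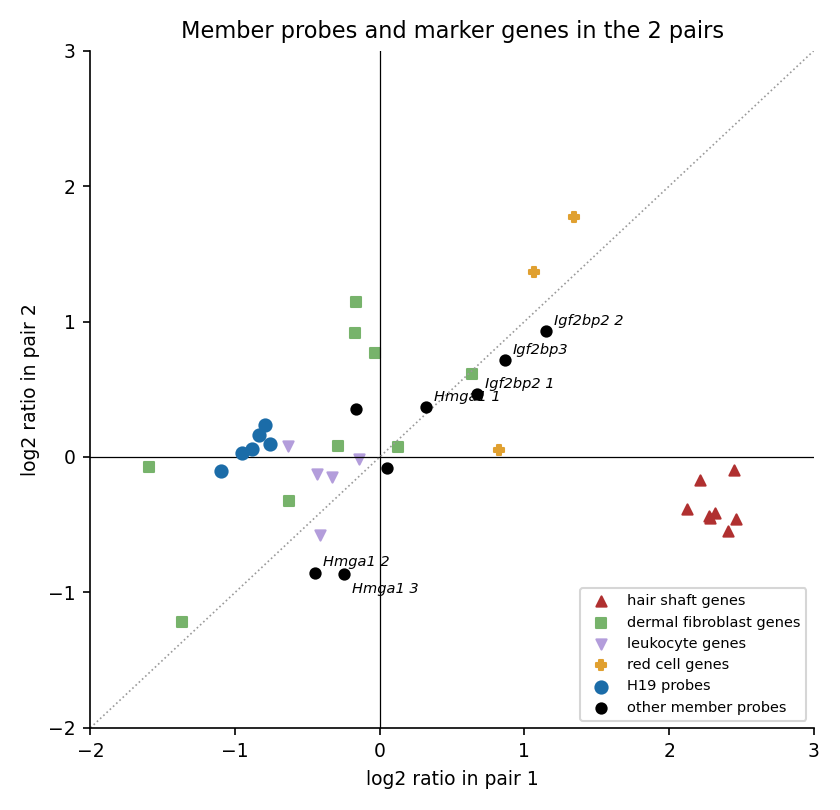
Log2 ratio in pair 1 (horizontal) against pair 2 (vertical) for member probes above background (black, and blue for H19) and for marker genes above background of hair shaft, dermal fibroblasts, leukocytes and red cells (coloured symbols, brightest probe per gene); the dotted line marks equal values. Igf2bp2 and Igf2bp3 lie near the line, while the H19 probes and the hair keratins lie away from it on opposite sides.

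Igf2, the growth factor gene next to H19, had 1 probe, at 149839661-149839720 on chromosome 7. It read 2.85 in the control and 1.83 in the induced pup of pair 1, and 2.70 and 2.61 in pair 2, which was well above background in all 4 channels but low. The log2 ratios of -0.16 and 0.35 had opposite signs, averaging 0.10 ± 0.367 (SD over 2 pairs, limma adjusted p = 0.796) and a 95% interval of -0.29 to 0.48. Igf2as, the antisense transcript of Igf2, had log2 ratios of -0.67 and 0.27 (limma adjusted p = 0.638).

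Dlk1 and Peg10 were at or near background. The Dlk1 probe at 110698721-110698781 on chromosome 12 was well above background only in the induced pup of pair 2, where it read 2.36, beside 2.14 and 2.09 in the controls and 1.40 in the other induced pup. Its log2 ratios were 0.07 and 0.79 (limma adjusted p = 0.234), so a higher value was seen in 1 of 2 pairs. For the other Dlk1 probe, at 110698502-110698561, both pairs gave values below 0, -0.23 and -0.24 (adjusted p = 0.402). Meg3, the noncoding RNA beside Dlk1, had 3 probes, 1 of them well above background and in a single channel, with adjusted p-values from 0.480 to 0.838 (limma).

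The Peg10 probe at 4704589-4704648 on chromosome 6 had log2 ratios of -0.13 in both pairs, and the one at 4709867-4709926 had -0.26 and 0.41. Neither was well above background in any channel, and neither passed (limma adjusted p = 0.663 and 0.858). Sgce, which shares the imprinted domain of Peg10, was above background in 3 of 4 channels and had log2 ratios of 0.91 and 0.31, without passing (limma adjusted p = 0.0930).

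Genes grouped with the members by pathway, binding, imprinting, protein family or oncofetal expression were taken from 7 lists. They were read by the brightest probe of each gene. Over all genes read this way, 3.52% were higher and 1.78% lower at an adjusted p under 0.05, and the median log2 ratio was close to 0. Without the members, the 7 lists held 156 measured genes, of which 13 were higher and 13 lower, with a median of 0.02. The lists were chosen, like the members, with results of these arrays known. Of these 26 genes, none changed sign with an offset of 50, median spot brightness, median centring or processed signals, and 23, 19, 21 and 0 in turn still passed an adjusted p of 0.05. Papd4, Trim25, Htra1 and Cd81 were among those lost with median spot brightness, and Htra1, Cd81, Igfbp6, Dcn and Mki67 were lost with median centring. An unchanged sign can hide a value near 0: with median centring the means of Htra1 and Cd81 were -0.0100 and -0.00210. Those of Dcn and Mki67 shrank to -0.24 and -0.26, and with processed signals that of Nrk was -0.0205. Spike-in scaling moves every probe of an array by a common step, which put most of the lower genes above 0.

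**Figure D4:**
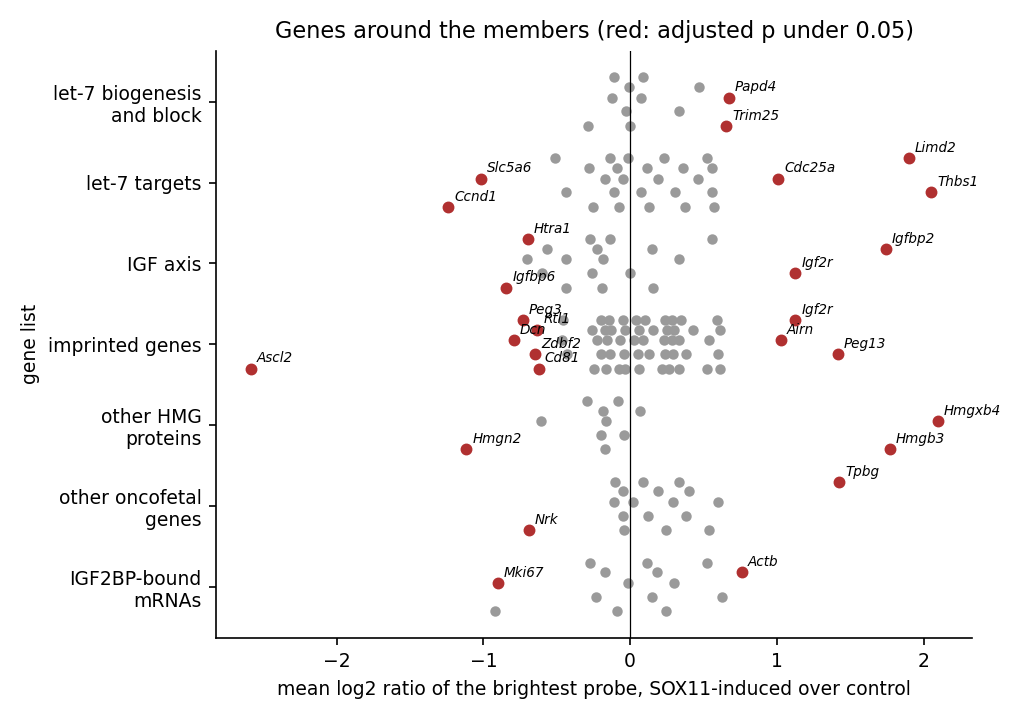
Mean log2 ratio of the brightest probe of each gene (SOX11-induced over control) in 7 lists of genes related to the members, members left out; red points with names passed an adjusted p under 0.05 and grey points did not. Vertical spread within a list is for legibility alone. Ascl2 is the lowest at -2.58 and Hmgxb4 the highest at 2.096.

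In the let-7 list of 13 genes for biogenesis and its block, 2 were higher and 0 lower, with a median of 0.08. Papd4, a poly(A) polymerase, had log2 ratios of 0.59 and 0.75 (limma adjusted p = 0.0400). Trim25, an RNA-binding ubiquitin ligase, had 0.60 and 0.70 at its brightest probe (adjusted p = 0.0433), whereas its other probe did not pass (adjusted p = 0.164). The uridylyl transferases Zcchc11 and Zcchc6, which mark let-7 precursors, did not pass, with means of -0.03 and -0.00.

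The 35 let-7 target genes included 5 that were higher and 2 that were lower, with a median of 0.13. Igf2bp2 and Igf2bp3 are among the 5. The others were Thbs1, a matrix glycoprotein (mean 2.05 ± 0.111, adjusted p = 0.000146), Limd2 (1.90 ± 0.330, adjusted p = 0.000391) and Cdc25a, a cell cycle phosphatase (1.01 ± 0.103, adjusted p = 0.00651). Limd2 had 3 probes, and the one at 106017961 had a mean of 0.13 and did not pass. The lower genes were the cyclin Ccnd1 (-1.24 ± 0.628, adjusted p = 0.0117) and the vitamin transporter Slc5a6 (-1.02 ± 0.0804, adjusted p = 0.00611). The list therefore held both directions, and let-7 itself was not measured.

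In the IGF axis, 2 of 21 genes were higher and 2 lower, with a median of -0.19. Igfbp2, an IGF-binding protein, had log2 ratios of 1.87 and 1.61, averaging 1.74 ± 0.187 (SD over 2 pairs, limma adjusted p = 0.000415), and its second probe had a mean of 1.49 (adjusted p = 0.00119). Igf2r, the receptor that clears IGF2 from the cell surface and itself an imprinted gene, had 1.35 and 0.90, averaging 1.12 ± 0.320 (adjusted p = 0.00621). Igfbp6, a binding protein that prefers IGF2, was lower, averaging -0.84 ± 0.408 (adjusted p = 0.0303), as was the protease Htra1 at -0.70 ± 0.325 (adjusted p = 0.0499). Igf1r, the signalling receptor, had log2 ratios of 0.80 and 0.31 and did not pass (adjusted p = 0.101).

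Of 63 imprinted genes measured, 3 were higher and 6 lower, with a median of 0.06. Ascl2, a transcription factor on chromosome 7, was lower in both pairs. It read 16.7 in the control and 1.73 in the induced pup of pair 1, and 13.1 and 3.17 in pair 2, with log2 ratios of -3.17 and -2.001, averaging -2.58 ± 0.824 (SD over 2 pairs, limma adjusted p = 0.000533). Cd81, a tetraspanin of the same chromosome, was lower by less (-0.62 ± 0.00521, adjusted p = 0.0499), and Cdkn1c, a cell cycle inhibitor there, had log2 ratios of 0.65 and 0.40 without passing (adjusted p = 0.0953).

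Higher imprinted genes besides Igf2r were the noncoding RNAs Peg13 (1.41 ± 0.146, adjusted p = 0.00117) and Airn (1.03 ± 0.509, adjusted p = 0.0184). Airn is transcribed across Igf2r from the opposite strand, and 2 of its 4 probes passed. Lower genes were Dcn, a matrix proteoglycan that dermal fibroblasts also make (-0.79 ± 0.244, adjusted p = 0.0260), Peg3 (-0.73 ± 0.240, adjusted p = 0.0348), Rtl1 and Zdbf2. The last 2 were at background in every channel, and their values (-0.63, adjusted p = 0.0499, and -0.65, adjusted p = 0.0486) missed the threshold with an offset of 50 (0.0842 and 0.0906) and with median spot brightness (0.0781 and 0.168). The other probes of Peg3 (-0.39, limma adjusted p = 0.207) and Zdbf2 (-0.13, adjusted p = 0.684), both at background, did not pass.

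The other HMG proteins, which like HMGA1 bind DNA or nucleosomes, included 2 of 12 that were higher and 1 lower, with a median of -0.17. Hmgxb4 had a mean of 2.096 ± 0.0457 (adjusted p = 0.000135) and Hmgb3, on the X chromosome, one of 1.77 ± 0.231 (adjusted p = 0.000425), both past the log2 threshold of 1.5. Hmgn2 was lower, at -1.12 ± 0.244 (adjusted p = 0.00518), and all 4 of its probes passed in that direction.

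Of 18 further oncofetal genes, Tpbg, the oncofetal trophoblast glycoprotein, was higher with log2 ratios of 1.52 and 1.33, averaging 1.42 ± 0.133 (SD over 2 pairs, limma adjusted p = 0.00110), and Nrk, at background in every channel, had a mean of -0.69 (adjusted p = 0.0352), which missed the threshold with an offset of 50 (0.109) and with median spot brightness (0.104). The median of this list was 0.16. Among 18 mRNAs known to be bound by IGF2BP proteins, Actb was higher (0.76 ± 0.0954, adjusted p = 0.0243) and the proliferation marker Mki67 lower (-0.90 ± 0.0469, adjusted p = 0.0111), with a median of 0.10. Myc, a well-known IGF2BP1 target, had log2 ratios of -0.15 and -0.19 (adjusted p = 0.552).

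**Figure D5:**
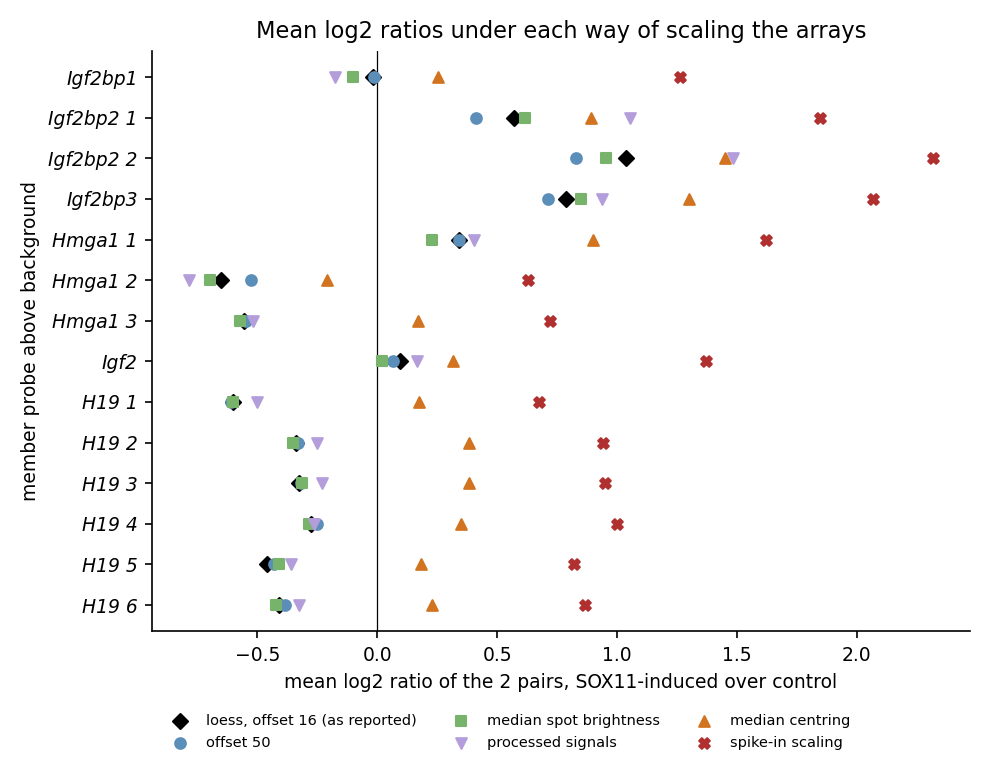
Mean log2 ratio of the 2 pairs (horizontal) for the 14 member probes above background under 6 ways of correcting and scaling the arrays, 1 symbol each. Igf2bp2 and Igf2bp3 are above 0 under all 6, while H19 and 2 Hmga1 probes are below 0 under the loess settings and processed signals, and the spike-in scaling puts every probe above 0.

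Spike-in RNAs are added in known amounts to both labellings, and scaling by them moves every probe of an array by the same step. After loess, the 10 spike-in probes had a mean log2 ratio of -1.21 on array 1 and -1.34 on array 2, where the mean of the known ratios is 0. That step moved the median of all probes from 0.01 to 1.28. Igf2bp2 (2.32) and Igf2bp3 (2.07) stood above this median, while the bright H19 probes (0.68 to 1.00) and the 2 lower Hmga1 probes stood below it. A common step leaves the distance of a probe from the median of its array unchanged. This placing therefore restates the loess values and adds nothing to them.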

How the data were processed

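RNA of mouse epidermis was measured on 2 two-colour Agilent arrays. The intensity values that the authors deposited are spot and background brightness per channel, in scanner units, from Agilent Feature Extraction 10.7.3.1 per the file headers (build mm9). The deposited log10 ratio column served only to check the dye direction, and the authors' deposited log2 ratio table was compared with the values computed here (correlation 1.00 with median spot brightness, 0.961 and 0.953 with mean). The labels show no dye swap, although the study's methods describe one.

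In R 4.3.3 with limma 3.58.1, mean brightness was corrected by normexp (offset 16) and loess within arrays, with control spots at weight 0. Flagged spots (194 and 186) were dropped, spots of a probe averaged, and an intercept-only model fitted with eBayes and Benjamini-Hochberg adjustment over 55676 probes. Variances drew on a prior of 8.34 degrees of freedom. The labels do not say whether the pairs came from separate litters, so p-values apply to these 2 pairs alone. They rest in large part on a variance shared across probes and do not measure the spread of a single probe between the pairs. A probe was above background when the software marked at least 0.5 of its spots so in 1 channel on both arrays.

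The members, lists and tests were chosen with earlier results of these data known. Every member is named: in full where above background or past an adjusted p of 0.05, otherwise by range or ratios. Of the let-7 target list, 1 gene is not reported here and was left out of the counts. List and marker genes are named when past 0.05, with a few fixed neighbours and, chosen after their values were seen, Zcchc11, Zcchc6, Myc, Sparc, Col1a2, Postn, Pdgfra, Lum, Dpt, Alas2, Krt1, Krt10, Lor, Krt5, Krt14 and Igf2as. Markers of muscle, endothelium, Schwann cells and melanocytes had 0 of 9, 0 of 5, 0 of 4 and 0 of 5 genes past 0.05, those of leukocytes, hair shaft and keratinocytes 0 of 5, 0 of 8 and 0 of 8. Of 15 fibroblast markers 1 was higher and 1 lower, and of 3 red cell markers 2 were higher. Alternatives were an offset of 50, median brightness, median centring, processed signals, spike-in scaling, a filter on dim probes, 1.5-fold, and leaving out a pair.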

Additional observations from a re-analysis of the deposited data

How the results depend on the processing

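The fit is already on paired differences, since each ratio is taken within a littermate pair, and no further replicate block could be fitted. Leaving out a pair leaves no spread to test, so no counts were made, and the median log2 ratio of the member probes was then between -0.15 and 0.23. With median centring, 756 probes in place of 252 passed both thresholds, 98.7% of them higher in place of 81.0%, and 5 member probes in place of 3 passed an adjusted p of 0.05. With processed signals 0 probes passed both thresholds and 0 member probes passed the adjusted p (limma). Without adjustment, 892 probes had a p under 0.05 and a log2 ratio past 1.5. With spike-in scaling 12423 of 55676 probes passed both thresholds. All 23 member probes passed the adjusted p, 8 of them also past 1.5, and their median was 1.35, beside 1.28 over all probes. The share of all probes past the adjusted p alone is not given under median centring or spike-in scaling. These member counts therefore cannot be set against the whole array. At 1.5-fold, 2446 probes and 3 member probes passed in place of 252 and 0. With dim probes left out, the member median was -0.30 over the 14 probes that remained, of which 6 read H19. By the brightest probe of each gene, the median was 0.15 over the 10 members and 0.04 over the 6 above background.

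Among the member probes above background, means over both pairs changed sign with median centring or spike-in scaling. Igf2bp1 had 0.26 and 1.26 in turn. The brightest Hmga1 probe had 0.17 and 0.72, and the Hmga1 probe at 27696588 had 0.63 with spike-in scaling. The 6 bright H19 probes had 0.17, 0.38, 0.38, 0.35, 0.18 and 0.23 with median centring and 0.68, 0.94, 0.95, 1.00, 0.82 and 0.87 with spike-in scaling. Spike-in scaling adds a common step to each probe of an array, while median centring takes the place of loess and its change differs between probes. The cause of the sign changes was not tested further. With an offset of 50, the second Igf2bp2 probe (adjusted p = 0.0323) and the Hmga1 probe at 27696588 (adjusted p = 0.0251) passed, and with median centring the second Igf2bp2 probe (adjusted p = 0.00242), the Hmga1 probe at 27693913 (adjusted p = 0.00230) and, as lower, the Dlk1 probe at 110698502 (-0.49, adjusted p = 0.0344) did. At background, means of 1 Hmga2 and 1 Peg10 probe fell just below 0 with processed signals (-0.01 and -0.06). With median centring, those of 1 Lin28b, 1 H19 and 1 Peg10 probe did (-0.07, -0.12 and -0.18). Spike-in scaling put the lower Dlk1 probe (1.04) and the lower Peg10 probe (1.15) above 0. Signal close to background limits Lin28b, Hmga2, Dlk1 and Peg10.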
